A study of Sus scrofa with 48 samples.

Results

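The effect of the diet on liver gene expression was examined within the line of pigs with a high residual feed intake (RFI), the line that eats more than its growth and body fat predict and is the less efficient of the pair. The 24 pigs labelled with this line (RFIpl) were kept, 12 fed a high-fat high-fiber diet (HF) and 12 a low-fat low-fiber diet (LF), out of 48 pigs in all. All were purebred Large White barrows from lines selected in opposite directions, penned alone during growth, given feed ad libitum and killed in the post-prandial period. Fat and fiber were raised together, so that their effects cannot be told apart. The other 24 pigs, of the low RFI line (RFIneg) and fed the same diets, 12 each, entered the estimate of the variance and a comparison of the diet effects. RNA of each liver was labelled with 1 dye and hybridized to 1 array of probes of 60 bases.

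The liver of a fed animal turns glucose into glycogen and fatty acids, desaturates dietary polyunsaturated fatty acids, and secretes cholesterol, phospholipids and bile acids into bile. Dietary polyunsaturated fatty acids are known to repress the genes of fatty acid synthesis through the transcription factor SREBF1, while insulin induces them. Fiber alters the return of bile acids from the intestine.

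Values are log2 intensities relative to the median of the tested probes of the same array, so that they compare pigs for a probe and not probes with each other. A log2 fold-change (log2 FC) is the mean with the HF diet minus the mean with the LF diet. Array medians ranged from 176.7 to 336 intensity units with the HF diet and from 141.2 to 251.6 with the LF diet, and the log2 medians differed by 0.18 (2-sided permutation test with 100000 resamples, P = 0.117). The share of probes well above background was 72.6% ± 2.62 (SD, n = 12) and 70.8% ± 2.05 (SD, n = 12), respectively (permutation test, P = 0.083). The mean correlation of an array with the others of the line was 0.9838 with the HF diet and 0.9826 with the LF diet (permutation test, P = 0.0488, not adjusted for these 3 measures). The 9 hepatocyte markers tested averaged from 8.89 to 9.50 above the array median in every pig of the line, as the label of liver requires. None of the first 5 principal components of the 24 arrays separated the diets after adjustment, the third, with 8.70% of the variance, being the nearest (permutation test, P = 0.0499, adjusted over 5 components P = 0.25).

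The diet effect in the high RFI line was small. With limma, 715 of 45236 tested probes were differentially expressed (P under 0.01 and fold-change over 1.1), or 1.58% of the probes, where a P under 0.01 alone would let 1% through if no probe changed. Of these, 356 (0.787%) were over-expressed and 359 (0.794%) under-expressed with the HF diet, and 366 carried no gene symbol. The median size of their log2 FC was 0.37, and 22 probes had a fold-change over 2. After Benjamini-Hochberg adjustment, 4 probes passed 5% (0.00884% of the probes), while 2997 had an unadjusted P under 0.05. The called probes stood for 252 of 10850 named genes, or 2.32%, counting each gene that had any called probe (121 over-expressed, 1.12%, and 131 under-expressed, 1.21%). By the brightest probe of each gene alone, 1.48% were called. The share of calls that were over-expressed, 49.8% here, differed with other treatments of the background. It was 28% with the normexp correction, 36.9% without background subtraction and 36.3% with the deposited log2 values. The cause of this was not tested. No called probe separated every HF pig from every LF pig. Statements on single genes below rest on the unadjusted P unless the adjusted P is given, and differences were measured in whole liver, where fewer cells of a type and less RNA per cell cannot be told apart.

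The 4 probes past 5% carried the names ABCB4, ABCB1 and FNDC1, and had 3 different sequences. ABCB4 moves phosphatidylcholine into bile, where it protects the ducts against bile acids, and ABCB1 is a related export pump for drugs and other hydrophobic compounds. The 5 tested probes named for these transporters had only 3 different sequences, and these are shown because the names of the genes depend on them. The first pair shares an overlap of 19 bases, of which the 17 identical ones are in capitals.
ABCB4 probe: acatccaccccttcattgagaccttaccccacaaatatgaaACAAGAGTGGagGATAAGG
ABCB1 probe of smallest P: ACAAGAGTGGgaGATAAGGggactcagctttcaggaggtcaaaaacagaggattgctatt
ABCB1 probe of highest intensity: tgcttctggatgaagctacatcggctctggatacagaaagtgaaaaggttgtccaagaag
The annotation of the array gives the same transcripts for both probes of the pair, so that the assignment between ABCB4 and ABCB1 is uncertain, and no genome was used to place them.

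All 5 probes were over-expressed with the HF diet. The ABCB4 probe was between 1.74 and 3.08 (median 2.21) in HF pigs and between 1.18 and 2.48 (median 1.54) in LF pigs. Its log2 FC was 0.70 (standard error 0.13, limma, adjusted P = 0.036), and 12 of 12 HF pigs lay above the LF median. Only 1 LF pig, at 2.48, lay above the HF median, and the next highest was at 1.79. The ABCB1 probe of smallest P was between 1.67 and 2.97 (median 2.18) in HF pigs and between 0.92 and 2.37 (median 1.39) in LF pigs, a log2 FC of 0.75 (limma, adjusted P = 0.036). The ABCB1 probe of highest intensity rose by a log2 FC of 0.55 (P = 2.8e-05), with 12 of 12 HF pigs above the LF median of 2.67. FNDC1, which codes for a protein with fibronectin type III domains, was between 1.14 and 2.36 (median 2.01) in HF pigs and between 0.19 and 1.49 (median 1.1) in LF pigs. Its single probe had a log2 FC of 0.89 (standard error 0.16, limma, adjusted P = 0.036). All but a pair of HF pigs were above the highest LF pig for FNDC1.

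The passing of the 5% level was fragile. With each pig left out in turn, between 0 and 9 probes passed, and it was 0 in 15 of 24 cases, although the ABCB4, ABCB1 and FNDC1 probes were called in 24 of 24 at the unadjusted cut-off. With the variance taken from the 24 arrays of the line alone, 0 probes passed and 619 were called.

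**Figure D1:**
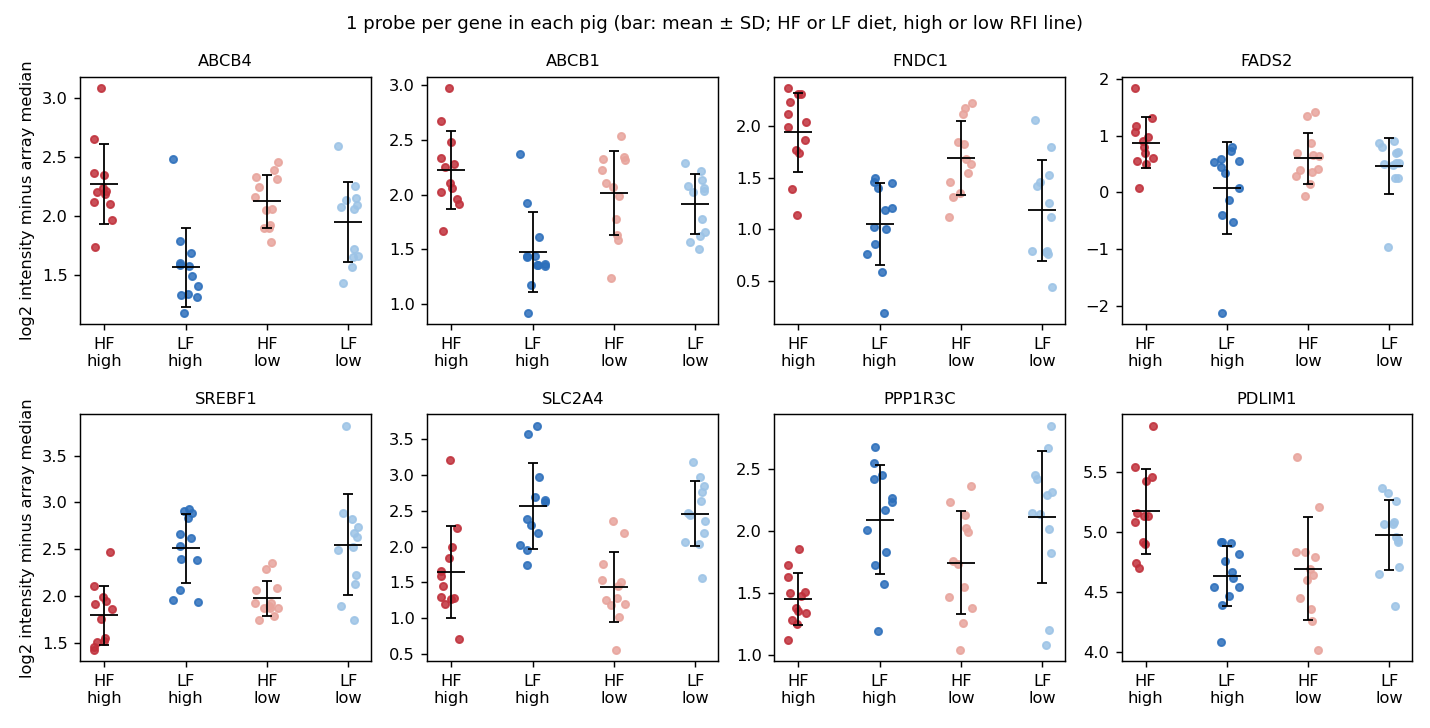
Log2 intensity relative to the array median (vertical axis) of 1 probe for each of 8 genes in every pig, by diet (HF or LF) and RFI line (high or low), with the mean and SD of 12 pigs as bars. For ABCB4 the HF pigs of the high RFI line lie between 1.74 and 3.08 and the LF pigs between 1.18 and 2.48, while for PDLIM1 the diets differ in opposite directions in the 2 lines.

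Among 27 tested genes of bile acid synthesis, transport and sensing, 3 were over-expressed with the HF diet and 0 under-expressed. They were ABCB4, ABCB1 and NR1H4, the nuclear receptor of bile acids. ABCB4 and ABCB1 are counted as separate genes here, although the assignment of their probes is uncertain. The median log2 FC of the list was 0.07, against -0.01 over all named genes. NR1H4 was called with 3 of 3 probes, with log2 FC between 0.21 and 0.31, and its probe of highest intensity was between 3.32 and 3.75 (median 3.41) in HF pigs and between 2.92 and 3.77 (median 3.23) in LF pigs (P = 0.0099). With 1 pig left out, this NR1H4 probe was called in 9 of 24 cases, and another was called in all. SLC10A1, which takes up bile acids from blood, had a log2 FC of 0.50 (P = 0.019). CYP7A1, the rate-limiting enzyme of bile acid synthesis, had a log2 FC of 0.64 with a standard error of 0.44 (P = 0.15), and ABCB11, the bile salt export pump, had one of 0.10 (P = 0.42).

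Of 14 tested genes of polyunsaturated fatty acid metabolism, 2 were over-expressed and 1 under-expressed, with a median log2 FC of -0.04. Those over-expressed were the desaturases FADS1 and FADS2, which introduce double bonds on the way to arachidonic and docosahexaenoic acid, and the probe of FADS2 is shown for the identity of the measurement.
FADS2 probe: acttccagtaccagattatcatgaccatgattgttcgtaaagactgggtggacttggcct
This probe was between 0.09 and 1.84 (median 0.86) in HF pigs and between -2.12 and 0.80 (median 0.39) in LF pigs, a log2 FC of 0.80 (standard error 0.23, P = 0.001). The LF group had a long lower tail, and 11 of 12 HF pigs were above its median. The other FADS2 probe gave 0.70 (P = 0.0012). For FADS1, the brighter probe gave a log2 FC of 0.75 (P = 0.0065) and the dimmer one 0.37 (P = 0.093), and the first was called in 17 of 24 cases with 1 pig left out, with the smallest log2 FC (0.59) without LF pig 3. ACSL4, which activates arachidonic acid, was lower for all 9 probes, with log2 FC from -0.98 to -0.41, but 1 probe was called. That probe was between -1.40 and 1.39 (median -0.28) in HF pigs and between -1.44 and 2.65 (median 0.93) in LF pigs (P = 0.0052), and 3 LF pigs lay above every HF pig while the lowest pigs of both diets were alike. It was called in 18 of 24 cases with 1 pig left out, with the smallest change (-0.80) without LF pig 11.

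Of 23 tested genes of de novo fatty acid synthesis, 1 was over-expressed and 2 under-expressed, and the median log2 FC was 0.00. The probes of SREBF1, the transcription factor that drives the pathway, did not change alike. A probe between 1.42 and 2.46 (median 1.81) in HF pigs and between 1.93 and 2.93 (median 2.57) in LF pigs fell by 0.72 on the log2 scale (standard error 0.15, P = 2e-05, adjusted P = 0.10). A second, brighter probe fell by 0.60 (P = 1.2e-05). In both, 12 of 12 HF pigs were below the LF median. The remaining SREBF1 probes, the brightest for this gene, had log2 FC of -0.08 (P = 0.29) and -0.07 (P = 0.44). All 4 probes were lower with the HF diet, but the size of the change depended on the probe.

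FASN, SCD and ACACA were not called in the high RFI line. FASN, the fatty acid synthase, had log2 FC between -0.48 and -0.26 over its 5 probes, and SCD, the stearoyl-CoA desaturase, between -0.32 and -0.20 over 11 probes. ACACA, the acetyl-CoA carboxylase, had a log2 FC of -0.47 (P = 0.056) for its brightest probe. SCAP, the escort protein of SREBF1, fell by 0.23 with 1 of 2 probes (P = 0.0091), and FADS6, a member of the desaturase family, rose by 0.45 with 1 of 2 probes (P = 0.006).

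Of 26 tested genes of cholesterol synthesis, uptake and sensing, 20 were higher and 6 lower with the HF diet for their brightest probes, with a median log2 FC of 0.21, the highest of the 22 pathway lists. SCAP was called as under-expressed, as above. Values without a call included ACAT2 (0.63, P = 0.075), HMGCS1 (0.58, P = 0.18) and FDPS (0.58, P = 0.053). The mean over the list was between 3.27 and 4.24 (median 3.795) in HF pigs and between 2.85 and 4.07 (median 3.68) in LF pigs, so that the diets overlapped and the lowest pigs were LF pigs. In the low RFI line the median log2 FC was -0.07, a difference between the lines that was not tested for the list.

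Of 44 tested genes of glucose and glycogen metabolism, 4 were under-expressed and 1 over-expressed, with a median log2 FC of -0.03. PPP1R3C and PPP1R3B, the subunits that bring protein phosphatase 1 to glycogen and promote its synthesis, were both under-expressed with the HF diet. PPP1R3C fell with 3 of 3 probes, and its probe of largest change was between 1.12 and 1.86 (median 1.42) in HF pigs and between 1.19 and 2.68 (median 2.20) in LF pigs, a log2 FC of -0.64 (standard error 0.17, P = 0.00037). The HF pigs were closer together than the LF pigs, and 12 of 12 lay below the LF median. PPP1R3B, with 1 probe, fell by 0.70 (P = 0.0077), and was called in 15 of 24 cases with 1 pig left out. GBE1, the glycogen branching enzyme, fell by 0.32 with 1 of 2 probes (P = 0.0061), and GAPDH, of glycolysis, by 0.24 (P = 0.0021) and 0.23 (P = 0.0073) with 2 of 2.

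G6PC, which releases glucose from glucose-6-phosphate, rose by 0.68 with 1 of 3 probes (P = 0.0057), the others being at 0.39 and 0.54 without a call. SLC2A4, the insulin-responsive glucose transporter of muscle and fat, which was not on the list, had 4 probes, of which 3 were called. Its brightest probe was between 0.70 and 3.21 (median 1.52) in HF pigs and between 1.74 and 3.69 (median 2.50) in LF pigs, a log2 FC of -0.92 (P = 0.00013), and 11 of 12 HF pigs were below the LF median.

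Among 31 tested genes of insulin and IGF signalling, IGFBP1, a secreted IGF-binding protein that insulin represses in liver, was the single call. Its brightest probe was between 4.33 and 5.83 (median 4.82) in HF pigs and between 4.07 and 5.2 (median 4.32) in LF pigs, a log2 FC of 0.48 (standard error 0.14, P = 0.00087), with 12 of 12 HF pigs above the LF median. The probes of IGFBP1 differed in size, since a pair of others had log2 FC of 1.83 (P = 0.017 and 0.018) and the dimmest 0.20 (P = 0.13).

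Of 50 tested genes of amino acid breakdown and the urea cycle, 2 were under-expressed and 0 over-expressed, with a median log2 FC of -0.09 and 14 genes higher for their brightest probes. The median of this list was -0.06 after quantile normalization. UROC1, an enzyme of histidine breakdown, fell with 4 of 5 probes, and its brightest probe was between 7.40 and 8.26 (median 7.83) in HF pigs and between 7.82 and 8.48 (median 8.09) in LF pigs (log2 FC of -0.33, P = 0.0035). GLDC, of glycine breakdown, fell by 0.35 with 1 of 4 probes (P = 0.0073). Of 71 ribosomal protein genes, 4 were under-expressed and 0 over-expressed, and 3 were higher, with a median log2 FC of -0.09 that was -0.04 after quantile normalization. FAU fell by 0.16 (P = 0.0077) and RPL14 by 0.19 (P = 0.0033) for their brightest probes, and RPL11 and RPL23 were called with another probe each. After quantile normalization the brightest FAU probe was at -0.08 and that of GAPDH at -0.11, without a call.

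Mitochondrial fatty acid oxidation held 1 call in 23 genes, ACADL, an acyl-CoA dehydrogenase, which rose by 0.28 with 2 of 7 probes (P = 0.0063 and 0.0085). No gene was called among the 32 targets of PPARA, 30 genes of triglyceride storage, 22 of apolipoproteins, 43 of conjugation and antioxidant defence, 41 of endoplasmic reticulum stress and heat shock, 19 of the circadian clock, 57 of the acute phase, 47 of the interferon response, 54 chemokine and cytokine genes, 70 of the respiratory chain or 39 of the cell cycle. By brightest probes, 0 genes of the interferon, chemokine and respiratory chain lists had an unadjusted P under 0.05, against 6.37% of all named genes. Of the interferon list, 40 of 47 genes were nevertheless higher with the HF diet, with a median log2 FC of 0.12, against 0.46 in the low RFI line. The mean over this list was between 2.28 and 3.965 (median 2.74) in HF pigs. It was between 2.32 and 4.17 (median 2.54) in LF pigs, so that the diets overlapped. ANGPTL4, a target of PPARA, had a log2 FC of -0.44 (P = 0.013), and PNPLA2, a triglyceride lipase, 0.28 (P = 0.035). Among cytochrome P450 enzymes and their receptors, 1 of 32 genes was called, ARNT, with 1 of 5 probes at a log2 FC of 0.22 (P = 0.005). The matrix list had 1 rise, COL5A2 (0.35, P = 0.0028), and 1 fall, COL14A1 (-0.26, P = 0.0084), with 1 of 5 and 1 of 12 probes. Against the 2.32% of all named genes, the share called was 21.4% for polyunsaturated fatty acid metabolism, 13.04% for fatty acid synthesis, 11.4% for glucose and 11.1% for bile acids, each resting on 3 to 5 genes. By the brightest probe of each gene, against 1.48% of all named genes, calls were fewer, with 2 of 14, 0 of 23, 3 of 44 and 3 of 27 genes, respectively. The bile acid counts take ABCB4 and ABCB1 as separate genes, which is uncertain. With the normexp correction COL5A2 was at 0.10, without a call.

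**Figure D2:**
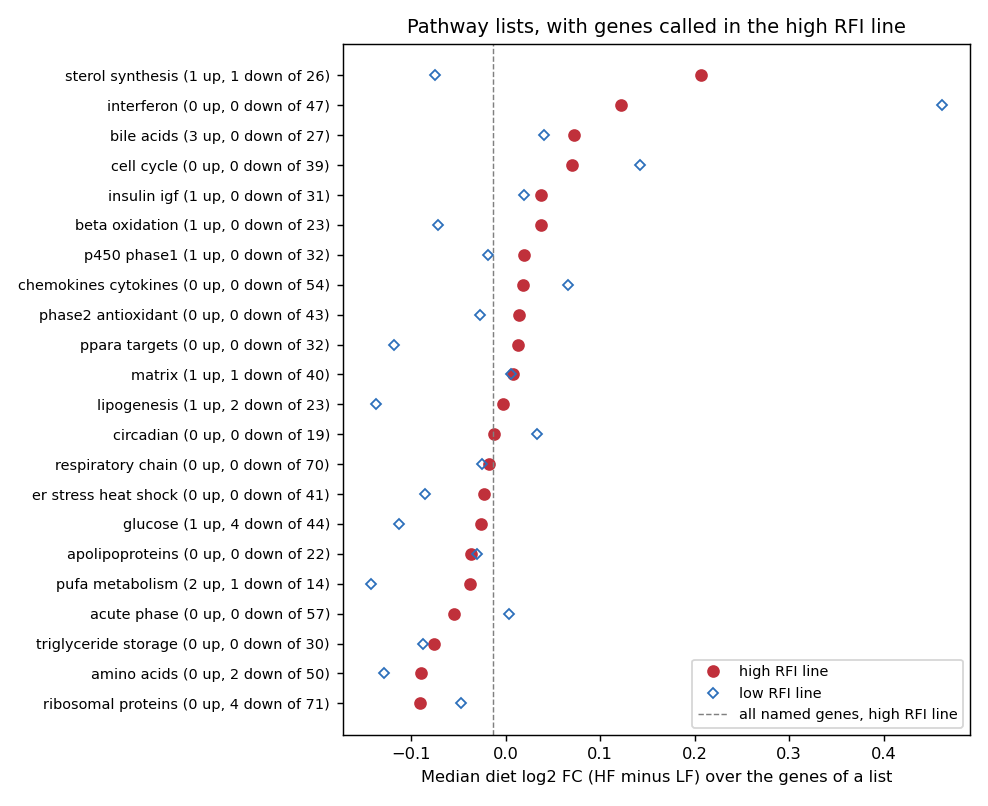
Median diet log2 FC, HF minus LF (horizontal axis), over the genes of each pathway list, each gene by its brightest probe, in the high RFI line (filled circles) and the low RFI line (open diamonds), with the number of genes called in the high RFI line. Sterol synthesis has the highest median in the high RFI line (0.21), and the dashed line marks -0.01, the median of all named genes.

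The largest rises among named probes well above background in all 24 pigs included genes of several functions. GRB7, an adaptor of growth factor receptors, was between 0.75 and 2.79 (median 1.30) in HF pigs and between -0.71 and 1.77 (median 0.63) in LF pigs, a log2 FC of 1.08 (P = 0.00056), with 1 of 3 probes called and another at -0.01. MCC rose by 1.03 (P = 0.00076), and FAM212B by 0.89 (P = 0.0069). With the normexp correction the changes of these dim probes were 0.46 and 0.45, and FAM212B was not called. SEC14L3, of a family of lipid-binding proteins, was between 6.01 and 6.55 (median 6.37) in HF pigs and between 3.27 and 6.39 (median 5.86) in LF pigs. Its log2 FC was 0.88 with both probes (P = 0.00052), and 12 of 12 HF pigs were above the LF median. The HF pigs were tightly grouped, and without LF pig 12 the log2 FC was 0.69. NOV, a secreted matricellular protein, rose by 0.73 (P = 0.0064), SLC6A11, a transporter of GABA, by 0.71 (P = 0.0049) and SIAH2, an E3 ubiquitin ligase, by 0.71 (P = 0.00057). Without LF pig 12, SLC6A11 rose by 0.52.

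The largest fall was that of PNOC, the precursor of the neuropeptide nociceptin. Its probe was between -2.27 and 1.75 (median -1.81) in HF pigs and between -1.94 and 1.72 (median 0.21) in LF pigs, a log2 FC of -1.36 (standard error 0.37, P = 0.00061). Most HF pigs were near the bottom of the range, but 2 HF pigs, at 0.66 and 1.75, were as high as the upper LF pigs. LGR5, a receptor of R-spondins that is expressed by hepatocytes around the central vein, was between -3.37 and -1.05 (median -2.25) in HF pigs and between -2.38 and 0.06 (median -0.96) in LF pigs. Its log2 FC was -1.1 (P = 0.0004), or -0.64 with the normexp correction, and 12 of 12 HF pigs were below the LF median. AGXT2L1, a phospholyase of phosphoethanolamine, fell by 0.79 (P = 0.0012) and SELP, the adhesion molecule P-selectin, by 0.68 (P = 0.0017). ARVCF, of the catenin family, fell with 3 of 4 probes (log2 FC of -0.64, -0.55 and -0.49), FAM166B by 0.55 (P = 0.0029), and a dim probe of RPL14 by 0.63 (P = 0.0011).

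OCLN, a protein of tight junctions, was singled out after its values were seen, because 4 of its 5 probes were called, with log2 FC from 0.34 to 0.56. The probe of smallest P was between -0.14 and 1.18 (median 0.30) in HF pigs and between -0.67 and 0.37 (median -0.15) in LF pigs (log2 FC of 0.56, P = 4.8e-05), and 12 of 12 HF pigs were above the LF median.

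Some called probes were not well above background on any array of 1 diet group. IRX4, a homeobox gene with 1 probe, was detected in 8 HF pigs and 0 LF pigs, and was at least 1.12-fold higher with the HF diet (limma, adjusted P = 0.45). A probe of PLSCR4, a phospholipid scramblase, detected in the same numbers of pigs, was at least 1.06-fold higher (limma, adjusted P = 0.45). These bounds set the LF pigs at the lowest signal well above background on their arrays or at their own signal, whichever was higher, and with the normexp correction the log2 FC of these 2 probes were 0.02 and 0.01, without a call. No bound above 1 was obtained for a probe of SCG3, detected in 5 HF and 0 LF pigs, or for a probe of TRUB1, detected in 0 HF and 5 LF pigs.

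The arrays were scanned on 2 days, with 12 arrays of the line on each. When the days were analysed apart, 392 and 383 of 45236 tested probes were called. On each day this was fewer than the 1% that a P under 0.01 alone allows. On both days 13 probes were called, 11 of them in the same direction. Over all tested probes, the diet log2 FC of the days correlated with r = 0.146, as a description, and had the same sign for 57.9%. ABCB4 (0.82 and 0.58), ABCB1 (0.78 and 0.71), FNDC1 (0.81 and 0.96), PPP1R3C (-0.61 and -0.67) and GRB7 (1.09 and 1.06) had like values on both days. PNOC fell by 0.48 and 2.24, MCC rose by 0.37 and 1.68, and NOV by 0.18 and 1.28, so that these sizes rested mostly on the second day. The same held for the dim probe of RPL14 (-0.18 and -1.09) and for SELP (-0.36 and -0.99). The PLSCR4 probe rested mostly on the first day (1.41 and 0.17). With the scan day as a block, 721 probes were called, and with the slide as a block 797.

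**Figure D3:**
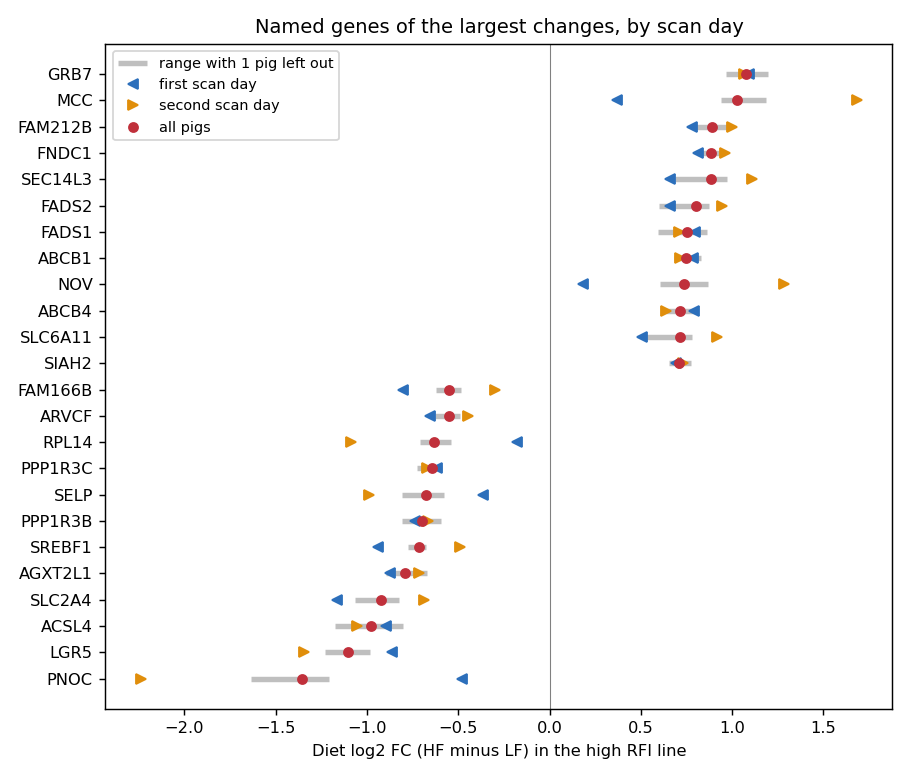
Diet log2 FC, HF minus LF (horizontal axis), in the high RFI line for the 24 named genes of the largest changes, with all pigs (circles), with the arrays of each scan day (triangles) and as the range with 1 pig left out (grey bars). GRB7 gives 1.09 and 1.06 on the 2 days, whereas PNOC gives -0.48 and -2.24.

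The diets were also compared in the low RFI line, whose arrays are other pigs. There 1213 probes were called (2.68%), standing for 3.93% of the named genes, and 94 probes were called in both lines, which is 13.2% of the calls in the high RFI line and 7.75% of those in the low RFI line. All 94 had the same direction. Of the 715 probes, 87.4% had the same sign in the low RFI line, against 64.4% of all tested probes, but their median log2 FC, taken in the direction of the high RFI line, was 0.15 there against 0.37 in the line that chose them. The values in the high RFI line are those the probes were chosen for, and no test was made of the shrinkage. Among named genes, 46 were called in both lines. SLC2A4 (-1.02 in the low RFI line), ACSL4 (-1.36), AGXT2L1 (-0.83), SREBF1 (-0.58) and FNDC1 (0.51) were among the genes whose probes were called in both.

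**Figure D4:**
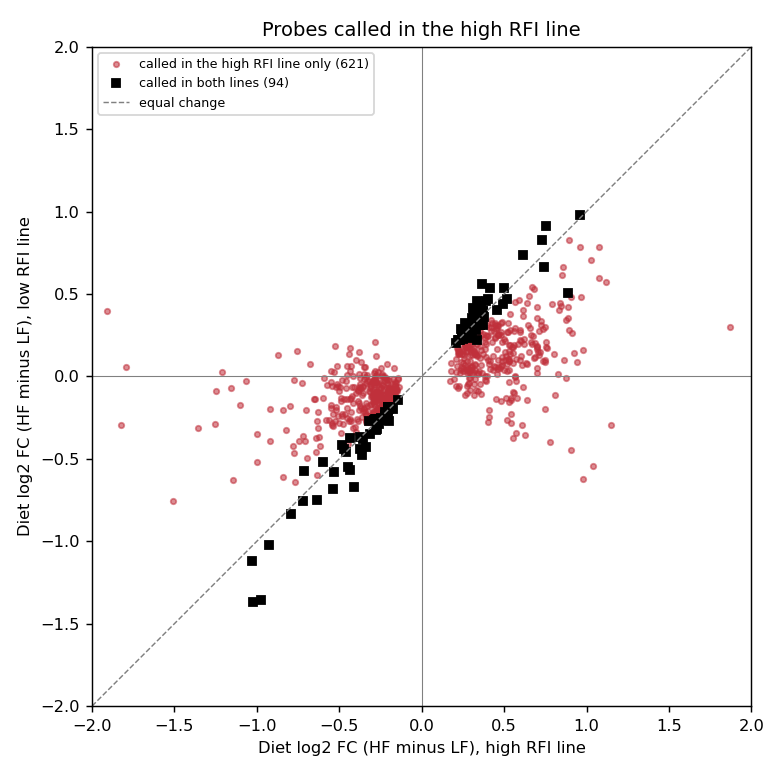
Diet log2 FC, HF minus LF, in the low RFI line (vertical axis) against that in the high RFI line (horizontal axis) for the 715 probes called in the high RFI line, with squares for the 94 called in both lines. The squares lie near the dashed line of equal change, while most other probes lie closer to 0 on the vertical axis. This follows in part from the choice, since only the squares had to be called in the low RFI line.

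The difference between the lines was tested by the interaction. It was called for 170 probes, or 0.376% of those tested, which is fewer than the 1% that a P under 0.01 alone allows, and for 0 after Benjamini-Hochberg adjustment with limma, while 1071 probes had an unadjusted P under 0.05. Of the 715 probes, 44 had an interaction P under 0.01. PDLIM1, which links actin filaments to signalling proteins, had the smallest interaction P among named called probes well above background in all 48 pigs, a choice made on the same contrast. It was between 4.70 and 5.89 (median 5.14) in HF pigs and between 4.08 and 4.92 (median 4.64) in LF pigs of this line, a log2 FC of 0.54 (P = 0.00024), against -0.28 in the low RFI line (P = 0.043). All 4 PDLIM1 probes rose in the high RFI line, with log2 FC from 0.41 to 0.54, and were between -0.28 and -0.23 in the low RFI line.

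The other genes chosen by this rule were CD1D, VCP, IFI27L2, IGFBP1 and ABCB1. CD1D, which presents lipid antigens, had a log2 FC of -0.28 in the high RFI line and 0.21 in the low RFI line, with 1 of 4 probes called. VCP, an ATPase of protein degradation, had 0.32 and -0.11, with 1 of 8 probes called, while its brightest probe was at 0.00 in the high RFI line. IFI27L2 had 0.45 and -0.14, and within the high RFI line -0.06 on the first scan day and 0.96 on the second. For IGFBP1 and ABCB1 the changes in the low RFI line were -0.15 (P = 0.27) and 0.10 (P = 0.49), and FADS2 had 0.14 there (P = 0.55, interaction P = 0.046).

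Some markers of bile duct cells moved with the diet in the high RFI line. Of 9 tested cholangiocyte markers, 3 were over-expressed with the HF diet by any probe (33.3%), against 1.12% of all named genes. By the brightest probe, 2 of 9 were called, against 1.48% of all named genes. By that probe 7 were higher, with a median log2 FC of 0.29, against 0.06 in the low RFI line. EPCAM, a surface protein of duct epithelium, was called with 13 of 19 probes, all of different sequence, and its brightest probe was between -1.15 and 0.31 (median -0.36) in HF pigs and between -1.78 and -0.26 (median -0.72) in LF pigs (log2 FC of 0.53, P = 0.0056). SOX9, a transcription factor of ducts, was called with 2 of 3 dim probes, at 0.94 and 0.76. The brightest SOX9 probe was at 0.58 (limma, P = 0.048), without a call. KRT7 and KRT19, keratins of duct cells, had 0.38 (P = 0.034) and 0.24 (P = 0.24), and CFTR, CLDN4 and MUC1 were between -0.04 and 0.11.

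The mean over the 9 cholangiocyte markers was between -0.31 and 0.62 (median 0.26) in HF pigs and between -0.65 and 0.37 (median -0.05) in LF pigs, so that the groups overlapped. The brightest EPCAM probe was called in 18 of 24 cases with 1 pig left out. With the normexp correction the brightest EPCAM probe was at 0.32 and the 2 SOX9 probes named above as called were at 0.11 and 0.06, all without a call. Of the other called EPCAM probes, some were called in all 12 alternative settings, the normexp correction among them, and another in only 4. The part of this shift in the rise of ABCB4, ABCB1, OCLN and the other genes was not tested. Hepatocyte markers had a median log2 FC of -0.15, with 0 of 9 called and 9 lower, and of 0.00 after quantile normalization.

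**Figure D5:**
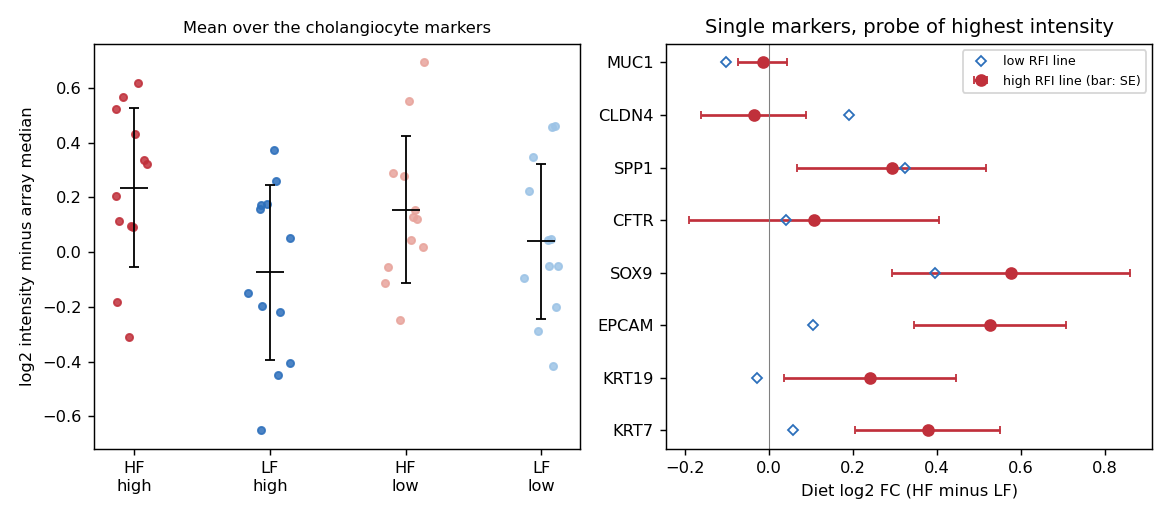
Left, mean log2 intensity relative to the array median over the 9 cholangiocyte markers in each pig, by diet and RFI line, with mean and SD of 12 pigs. Right, diet log2 FC (HF minus LF) of single markers of the list in the high RFI line with its standard error and in the low RFI line, where EPCAM is at 0.53 and 0.10.

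Of the markers of other cells, STAB1, an endothelial scavenger receptor, fell by 0.44 with its 1 probe (P = 0.0074), and CD247, the zeta chain of the T cell receptor complex, rose by 0.37 with 1 of 3 probes (P = 0.0053), with a log2 FC of 0.56 in the low RFI line. They were the only calls among 10 endothelial markers and 18 markers of T and NK cells, and 0 were called among 15 of Kupffer cells, 7 of B and plasma cells, 6 of neutrophils, 11 of stellate cells, 8 of erythroid cells, 8 of adipocytes and 6 of exocrine pancreas.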

How the data were processed

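Liver RNA of 48 pigs was measured on 1 array each, and the 24 of the high RFI line were grouped by diet from the labels. The authors deposited the intensity of each spot as background-subtracted, mean and median signal, without normalization between arrays, and a table of median-centred log2 values, which was an alternative here. Their processing notes name R 2.10.0. The background-subtracted intensity was log2-transformed and centred on the array median. Control spots were left out and 483 outlier spots set to missing, which touched 4 called probes in these pigs. Probes that passed the scanner's well-above-background flag in 12 or more of the arrays were fitted with limma 3.58.1 in R 4.3.3, with 4 group means over 48 arrays (prior degrees of freedom 2.8). Permutation tests used SciPy 1.17.1.

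Symbols came from the accession in the Sscrofa11.1 reference table (9896 probes of the array), the scanner output (15854) or an accession shared with a named probe (398), a step added after the largest changes were seen. Symbols can be old. The 60305 probes included some of the same sequence, and the 45236 tested ones had 43443 sequences. Named genes were list members, the 12 largest rises and 12 largest falls among named called probes well above background in the 24 pigs, those at an adjusted P of 5%, 6 by interaction P, and dim probes as bounds. A list gene stands by its brightest probe. The members, lists and rules were chosen with earlier results of these data known, and the lists describe, without a set test. Replicate numbers are names in accession order. The alternatives were other normalizations, background corrections, filters, blocks, single scan days and leaving out each pig. The steps were tested on simulated data. The number of arrays limits the precision. Some genes of the lists are counted but not reported here by name.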

Additional observations from a re-analysis of the deposited data

Results flagged for a closer look

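The diet effect differed between the RFI lines at an unadjusted interaction P under 0.01 for 10 of the 84 probes named by the rules, and none of them passed Benjamini-Hochberg adjustment. The log2 FC of the high RFI line minus that of the low RFI line was 0.82 for PDLIM1 (P = 9.1e-05), -0.49 for CD1D (P = 0.0014), 0.63 for IGFBP1 (P = 0.0018), 0.65 for a probe of ABCB1 (P = 0.0019), 0.43 for VCP (P = 0.002) and 0.59 for IFI27L2 (P = 0.0022). It was 1.45 for IRX4 (P = 0.0039), which was dim, 0.57 and 0.52 for the ABCB4 probes of the same sequence (P = 0.0046 and 0.0052), and 0.38 for a probe of ACADL (P = 0.0081). PDLIM1, CD1D, IGFBP1, ABCB1, VCP and IFI27L2 were chosen by this same interaction P.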

How the results depend on the processing

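The 715 called probes became 1301 with the normexp correction and 392 and 383 with the first and second scan day alone, and the 252 called genes 477, 143 and 136. Of the 715, 439 (61.4%) were kept with normexp, with 27 of the other sign, 469 (65.59%) with the arrays of the line alone, and 424 of the 605 tested there with the deposited values. With each pig left out, between 561 and 796 probes were called. The 4 probes at an adjusted P of 5% became 0 with the unmoderated ANOVA, the arrays of the line alone, no filter on dim probes and each scan day alone, 2 with the slide as a block and 8 with the normexp correction or the deposited values. They became 0 without HF pigs 1, 4, 5, 7, 10 or 11 and LF pigs 1, 2, 3, 4, 6, 7, 8, 11 or 12, and 9 without LF pig 9. In the low RFI line, 317 and 805 probes were called on the single days, and 1 passed 5% with the unmoderated ANOVA, 75th percentile centring, quantile normalization and the filter on all arrays. The 170 interaction calls became 110 with normexp, 111 with the median signal, 272 without a filter and 93 with the deposited values. The cause of these changes was not tested, except that single days and left-out pigs have fewer arrays. For the 84 named probes and 12 settings apart from single days, 878 of 991 values kept direction and call, 113 lost the call and 0 reversed, and IFI27L2 was at -0.05986 on the first day. Quantile normalization, added for the gene lists after seeing the data, turned the medians of the apolipoprotein and acute phase lists to 0.02. List medians moved by less than the pooled SD between pigs, except that of hepatocyte markers, from -0.15 to 0.0021 with quantile normalization. No paired analysis was possible because the replicate numbers only follow the accession order. Dim probes are limited by signal over background.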
